A study of Mus musculus with 6 samples.

Results

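The acetylcholine receptor genes of the mouse prefrontal cortex examined here were 4 muscarinic genes (*Chrm1*, *Chrm2*, *Chrm3* and *Chrm4*) and 5 nicotinic subunit genes (*Chrna3*, *Chrna4*, *Chrna5*, *Chrna7* and *Chrnb2*). They were taken by gene symbol, and all 9 were found among the 56923 genes of the count tables. RNA was measured in 3 libraries from *Pla2g4e* KO tissue and 3 libraries from WT tissue. The KO was constitutive, carried the tm2a allele of *Pla2g4e* with a LacZ trapping element predicted to end the normal transcript by splicing, and was kept on a C57BL/6N-A tm1Brd background, and WT mice served as controls. The labels give neither age, sex nor litter, and nothing in them says that each library came from a separate animal, so the p-values measure the spread between these libraries. *Pla2g4e*, which encodes an enzyme of the cytosolic phospholipase A2 family, had 88, 97 and 102 fragments (read pairs) in KO replicates 1 to 3 and 100, 138 and 168 fragments in WT replicates 1 to 3. Its log2 fold change (KO over WT) in limma-voom was -0.55 (SE 0.21, adjusted p = 0.635). Fragments over its exons were thus counted in every KO library. These counts pool all annotated exons and do not separate normal from trapped transcripts. Western blots in the paper showed no Pla2g4e protein in the hippocampus of KO mice.

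Acetylcholine reaches the prefrontal cortex mainly through axons of basal forebrain neurons, where it acts in attention and working memory. Muscarinic receptors are G protein-coupled receptors. Those encoded by *Chrm1* and *Chrm3* act through Gq and phospholipase C, whereas those encoded by *Chrm2* and *Chrm4* act through Gi and Go, lower cyclic AMP and often sit on axon terminals. Nicotinic receptors are pentameric cation channels opened by acetylcholine. In the brain the main forms are built from the *Chrna4* and *Chrnb2* subunits or from *Chrna7* alone, *Chrna5* joins *Chrna4* and *Chrnb2* as an accessory subunit in deep cortical neurons, and *Chrna3* is typical of autonomic ganglia and of a few brain nuclei.

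The families can be told apart in their coding sequence. The first set of stretches, each 30 bases of coding sequence on the coding strand, was taken from the GENCODE M21 transcripts of GRCm38 and shows the conserved Asp-Arg-Tyr triplet, which lies at the cytoplasmic end of a transmembrane helix and takes part in coupling to the G protein. The codons of the triplet are in capitals.
Chrm1: atcagctttGACCGTTACttctcagtgacc
Chrm2: atcagctttGATAGATACttctgtgtcaca
Chrm3: atcagctttGACAGGTACttttctattacc
Chrm4: atcagctttGACCGCTATttctgcgtcacc

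The bases before the triplet were identical in the 4 muscarinic genes, and the arginine codon of the triplet differed in each of them. The second set, from the same transcripts, shows the pair of adjacent cysteines that defines a nicotinic alpha subunit and lies in the loop that closes over bound acetylcholine. The codons of both cysteines are in capitals.
Chrna3: atcaagtacaacTGCTGTgaggagatctac
Chrna4: aggaagtatgaaTGCTGTgccgagatctat
Chrna5: cggacggacagcTGCTGCtggtacccctgc
Chrna7: aagttctatgaaTGCTGCaaagagccatac

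A tyrosine codon stands 2 residues before the cysteine pair in *Chrna3*, *Chrna4* and *Chrna7*, and an aspartate codon stands there in *Chrna5*, the alpha subunit that does not form an acetylcholine site of its own. No adjacent cysteines were found in the matching window of *Chrnb2*, a beta subunit, so no stretch of it is shown.

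Library totals ranged from 11792463 to 14594230 fragments. KO replicate 1 stood apart from the other libraries in several marker lists. The summed level of 7 olfactory bulb markers (*Doc2g*, *Cdhr1*, *Eomes*, *Tbx21*, *Th*, *Nmb* and *Sp8*) was 237 CPM there and 15.3 to 61.4 CPM in the other 5 libraries, and all 7 of 7 markers were highest in that library. CPM stands for the fragments of a gene scaled to a common library size after TMM correction. The summed level of 8 cortical excitatory neuron markers was lowest in KO replicate 1, at 6204 CPM against 6518 to 7437 CPM, although none of them was near 0 in any library. The 8 interneuron markers went both ways there. Their sum was highest, at 1078 CPM against 663 to 881 CPM, with 4 of the 8 at their highest and *Gad1* alone at 580.5 CPM, whereas *Sst* (80.4 CPM), *Pvalb* (20.1 CPM) and *Lhx6* (13.6 CPM) were at their lowest. Cortical *Slc17a7* was at 1160 to 1627 CPM in all libraries, and striatal *Drd2* was at 1.25 to 7.84 CPM. *Xist* was high in replicate 1 of each group and near 0 in the other 4 libraries.

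*Chrm1* was the most abundant of these receptor transcripts in 6 of 6 libraries and *Chrna3* the least abundant in 6 of 6. Levels between genes were compared as FPKM, which is CPM divided by the exon length of the gene in kilobases. The mean over the 6 libraries was 28.2 ± 1.74 FPKM (SD, n = 6) for *Chrm1* and 13.4 ± 2.51 FPKM for *Chrm4*. *Chrna4* was at 8.97 ± 1.15 FPKM, *Chrm3* at 7.91 ± 1.35 FPKM and *Chrnb2* at 6.49 ± 0.354 FPKM. These 3 genes were followed by *Chrm2* at 3.14 ± 0.722 FPKM, *Chrna7* at 2.41 ± 0.238 FPKM, *Chrna5* at 1.09 ± 0.373 FPKM and *Chrna3* at 0.161 ± 0.185 FPKM. The main alpha and beta subunits of the high-affinity nicotinic receptor thus stood in the middle of the order, between the muscarinic genes. The same order was found in the KO libraries alone, in the WT libraries alone and without any single library.

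**Figure D1:**
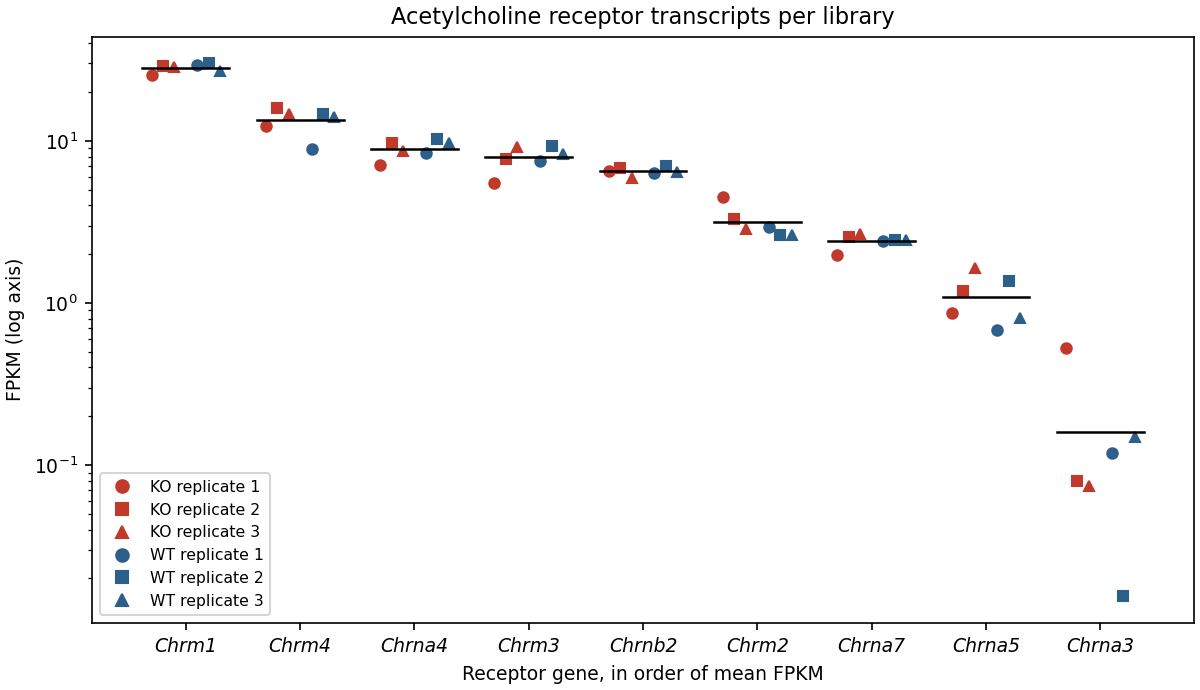
FPKM (log axis) of the 9 receptor genes in each library, with symbols for the replicate, colours for the group and a bar at the mean of 6 libraries. *Chrm1* lies above all other genes in each library. The range of *Chrm3* overlaps those of *Chrna4* and *Chrnb2*, which do not overlap each other. *Chrna3* spreads from 0.0155 to 0.526 FPKM.

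Neighbours in this order were compared within libraries by an exact two-sided sign-flip permutation test of the log2 ratio, adjusted over the 8 neighbouring pairs. With 6 libraries the smallest p-value is 0.03125, and 6 of the 8 pairs reached it, with an adjusted p-value of 0.0417. *Chrm1* exceeded *Chrm4* by 2.13-fold on average, and the ranges of the 2 genes did not overlap. *Chrnb2* exceeded *Chrm2* by 2.10-fold, *Chrna7* exceeded *Chrna5* by 2.32-fold and *Chrna5* exceeded *Chrna3* by 10.6-fold, each without overlap. The last of these ratios ran from 1.64 in KO replicate 1 to 87.6 in WT replicate 2, where *Chrna3* had 1 fragment, and its mean was 6.98-fold without WT replicate 2 and 15.5-fold without KO replicate 1. *Chrm4* exceeded *Chrna4* by 1.48-fold and *Chrm2* exceeded *Chrna7* by 1.28-fold, in 6 of 6 libraries each, but with overlapping ranges.

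Within the middle group the neighbours could not be ordered. *Chrna4* was above *Chrm3* in 5 of 6 libraries, by a log2 ratio of 0.19 ± 0.16 (SD, n = 6, exact p = 0.0625, adjusted p = 0.0714). *Chrm3* was above *Chrnb2* in 5 of 6 libraries, by 0.27 ± 0.28 (SD, n = 6, exact p = 0.0938, adjusted p = 0.0938). The log2 ratio of *Chrm2* over *Chrna7* was 0.36 over all libraries and 0.19 without KO replicate 1, in which *Chrm2* was highest and *Chrna7* lowest. Division by the length of 1 principal GENCODE M21 transcript, chosen after seeing the data, placed *Chrm3* above *Chrna4* in 6 of 6 libraries and *Chrna7* above *Chrm2* in 5 of 6, since the counted exon lengths of *Chrna7* (4505 bases) and *Chrm3* (6253 bases) are longer than those transcripts (2078 and 4336 bases). With those lengths *Chrm4* was above *Chrna4* in 5 of 6 libraries, and the test no longer reached its smallest p-value (exact p = 0.0625). The place of *Chrm4* rests on an annotated exon of 1440 bases that holds only its coding sequence, so fragments from its untranslated regions were not counted.

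Across all genes, limma-voom called 0 of 19084 (0%) at an adjusted p-value under 0.05. For 1491 genes (7.81%) the unadjusted p-value was under 0.05, and 835 of these were higher in KO. With library totals in place of TMM scaling, 1071 of 1490 were higher. All 9 receptor genes passed the filter on low counts, and 0 of 9 passed the adjusted threshold. One of the 9, *Chrm2*, had an unadjusted p-value under 0.05. The KO and WT values overlapped for all 9 genes, whereas they did not overlap for 13% of all genes tested. Of the 9, 4 had a higher and 5 a lower estimate in KO, with a median log2 fold change of -0.044 against 0.0085 over all genes tested. In bulk tissue, fewer cells of a type and less RNA per cell cannot be told apart.

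**Figure D2:**
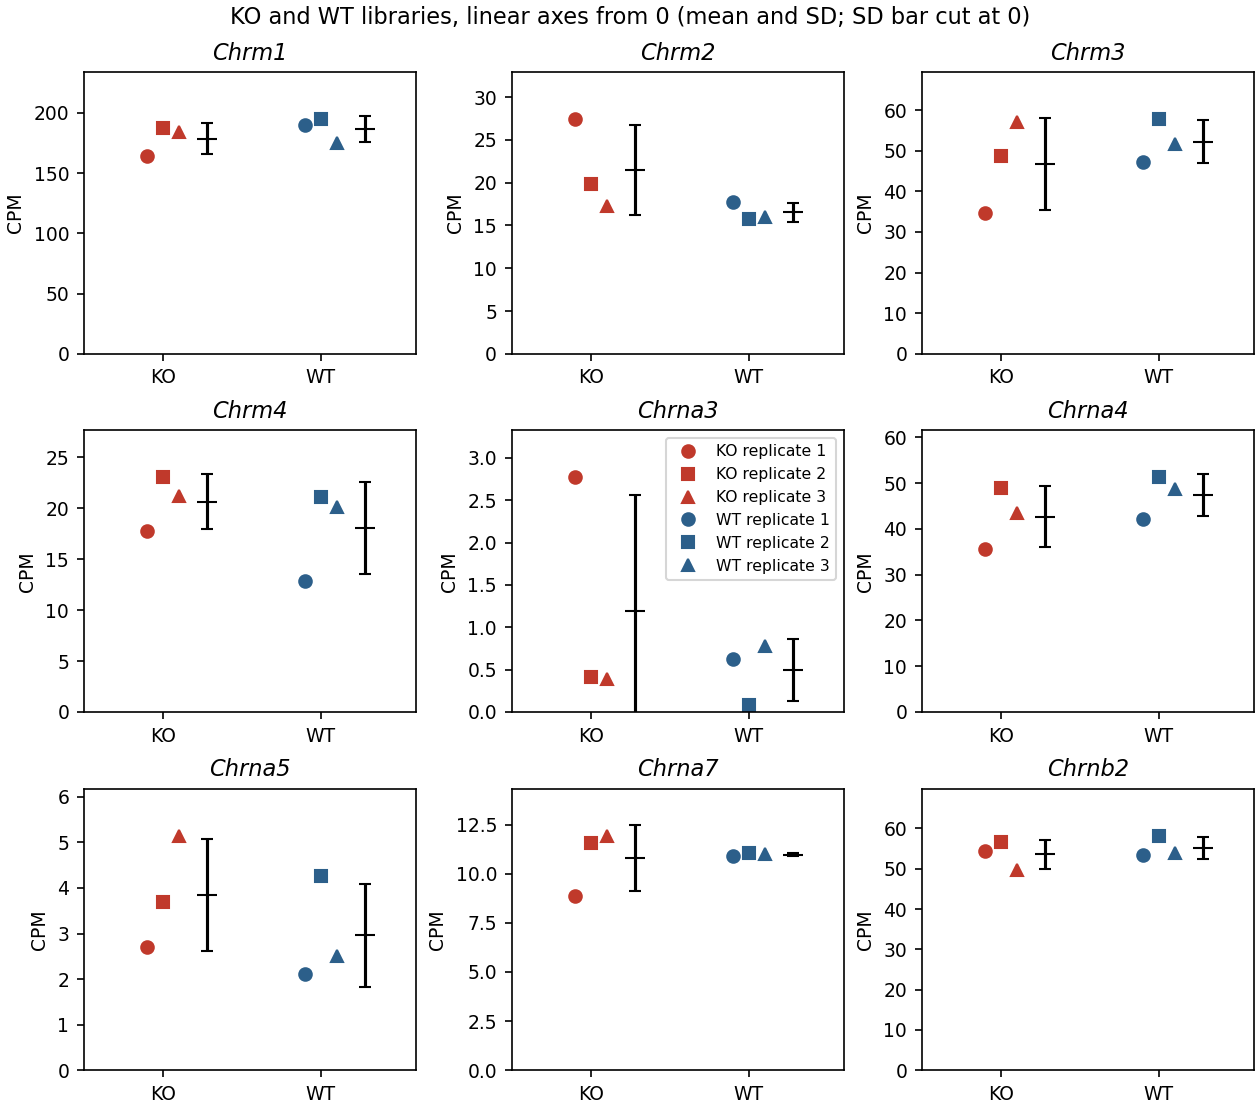
CPM of each receptor gene (linear axes from 0) in KO and WT libraries, with the mean and SD of 3 libraries beside the points. The groups overlap in every panel, and KO replicate 1 is the highest library for *Chrm2* and *Chrna3* and the lowest for *Chrm1*, *Chrm3*, *Chrna4* and *Chrna7*.

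Among the Gq-coupled receptors, *Chrm1* lies on the plus strand of chr19:8641153-8660951 in GRCm39 with 3 exons. It was at 164, 188 and 184 CPM in KO and at 190.4, 195 and 175 CPM in WT. WT replicate 2 was highest and KO replicate 1 lowest, and KO replicates 2 and 3 fell inside the WT range. The log2 fold change was -0.065 (SE 0.073, adjusted p = 0.814), with a 95% interval of 0.857- to 1.07-fold, the narrowest among the receptor genes on the log2 scale. With 1 library left out the estimate lay between -0.11, when WT replicate 3 was dropped, and -0.0040, when KO replicate 1 was.

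*Chrm3*, on the minus strand of chr13:9925522-10410883, was at 34.6, 48.6 and 57.1 CPM in KO and at 47.2, 57.7 and 51.5 CPM in WT. KO replicate 1 was lowest, KO replicate 3 was near the highest library, and the KO libraries spanned the whole WT range except its top. On the log2 scale KO differed from WT by -0.19 (SE 0.15, adjusted p = 0.730), by 0.022 without KO replicate 1, which turned its sign, and by -0.35 without KO replicate 3 (unadjusted p = 0.0245 in limma-voom). Both genes of the Gq arm were thus lowest in the library with the high olfactory bulb markers, and the part of those markers in their levels was not tested.

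*Chrm2*, the first of the Gi-coupled receptors and a well known autoreceptor of cholinergic terminals, lies on the plus strand of chr6:36365019-36505349. It was at 27.4, 19.8 and 17.2 CPM in KO and at 17.8, 15.8 and 16.0 CPM in WT, from 406, 237 and 221 and from 227, 193 and 204 fragments. KO replicate 1 was the highest library by a wide margin, and KO replicate 3 lay below WT replicate 1, so the groups overlapped.

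The log2 fold change of *Chrm2* was 0.37 (SE 0.16), or 1.29-fold, with a 95% interval of 1.02- to 1.64-fold. For this difference limma-voom gave an unadjusted p = 0.0373 and an adjusted p = 0.635. Without KO replicate 1 it was 0.16 (unadjusted p = 0.224, adjusted p = 0.925 in limma-voom). Within the 4 libraries with *Xist* near 0 it was 0.21 (unadjusted p = 0.138 in limma-voom). The estimate stayed above 0 in all 16 alternatives, between 0.16 and 0.51, the unadjusted p-value was under 0.05 in 11 of them, with adjusted values between 0.333 and 0.999. *Chrm2* was highest in the library with the highest olfactory bulb marker sum, whose part in this difference was not tested.

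*Chrm4*, a receptor of cortical and striatal neurons, lies on the plus strand of chr2:91757594-91759033. *Pla2g4e*, *Chrna4*, *Chrm5* and *Chrna1* are on the same chromosome as *Chrm4*. *Chrm4* was at 17.8, 23.0 and 21.2 CPM in KO and at 12.8, 21.1 and 20.2 CPM in WT. WT replicate 1 was the lowest library, and the other WT libraries lay within the KO range. The estimate for *Chrm4* was 0.21 (SE 0.17, adjusted p = 0.741) on the log2 scale, and it was -0.018 without WT replicate 1, which turned its sign.

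The summed level of 10 striatal neuron markers was 347, 451 and 342 CPM across the KO libraries, against 255, 261 and 429 CPM in WT. It was lowest in WT replicate 1, as *Chrm4* was, and highest in KO replicate 2, as *Chrm4* was, whereas WT replicate 2 had the second lowest striatal sum but *Chrm4* at 21.1 CPM. All 10 of the markers had a higher estimate in KO, and *Drd2* was at 2.03, 7.20 and 3.51 CPM across the KO libraries, against 1.25, 1.64 and 7.84 CPM in WT. It was lowest in WT replicate 1, as *Chrm4* was, but highest in WT replicate 3, where *Chrm4* was not. The part of striatal tissue in the level of *Chrm4* was not tested.

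Among the subunits of the high-affinity nicotinic receptor, *Chrna4*, on the minus strand of chr2:180660173-180685339, was at 35.6, 48.9 and 43.5 CPM in KO and at 42.2, 51.3 and 48.7 CPM in WT. KO replicate 1 was lowest and WT replicate 2 highest, and KO replicates 2 and 3 lay within the WT range. Its log2 fold change was -0.17 (SE 0.11, adjusted p = 0.698), and it was -0.036 without KO replicate 1, -0.11 without WT replicate 2 and -0.27 without KO replicate 2 (unadjusted p = 0.0386 in limma-voom).

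*Chrnb2*, which supplies the beta subunit, lies on the minus strand of chr3:89653502-89671939. It was at 54.3, 56.7 and 49.6 CPM in KO and at 53.3, 58.2 and 53.9 CPM in WT. Its highest library exceeded the lowest by 1.17-fold, and the KO and WT values were interleaved. *Chrnb2* had a log2 fold change of -0.044 (SE 0.078, adjusted p = 0.892), with a 95% interval of 0.862- to 1.09-fold. *Adar* overlaps its exons by 1365 bases on the other strand, and the counting used the strand of the reads.

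*Chrna7*, the subunit of the homomeric receptor, lies on the minus strand of chr7:62748440-62862317. It was at 8.85, 11.6 and 11.9 CPM in KO and at 10.89, 11.04 and 10.98 CPM in WT. The WT libraries lay close together, with a mean of 10.97 ± 0.0776 CPM (SD, n = 3), and KO libraries lay on both sides of them. For *Chrna7* the log2 fold change was -0.052 (SE 0.14, adjusted p = 0.938), and it was 0.099 without KO replicate 1, which turned its sign.

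*Chrna5*, *Chrna3* and the ganglionic beta subunit *Chrnb4* are neighbours on chromosome 9 without shared exons. *Chrna5*, the accessory subunit, lies on the plus strand of chr9:54888164-54915063. It was at 2.702, 3.68 and 5.15 CPM in KO and at 2.12, 4.25 and 2.51 CPM in WT, from 27 to 66 fragments per library. KO replicate 3 was highest and WT replicate 1 lowest, and the groups overlapped over most of their range. Its estimate was 0.38 on the log2 scale (SE 0.31, adjusted p = 0.745). Its 95% interval of 0.817- to 2.06-fold reaches below and above no difference. It was 0.63 without KO replicate 1, 0.66 without WT replicate 2 and 0.14 without KO replicate 3.

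*Chrna3*, on the minus strand of chr9:54917395-54933846, had 41, 5 and 5 fragments in KO and 8, 1 and 10 fragments in WT. Scaled, these were 2.77, 0.419 and 0.390 CPM across the KO libraries, against 0.627, 0.0818 and 0.784 CPM in WT. KO replicate 1 stood far above the others, and KO replicates 2 and 3 lay within the WT range. The estimate from all libraries was 1.10 on the log2 scale (SE 0.89, adjusted p = 0.745), and it was 0.11 without KO replicate 1, 0.25 without WT replicate 2, and 1.45 to 1.61 without any other single library.

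**Figure D3:**
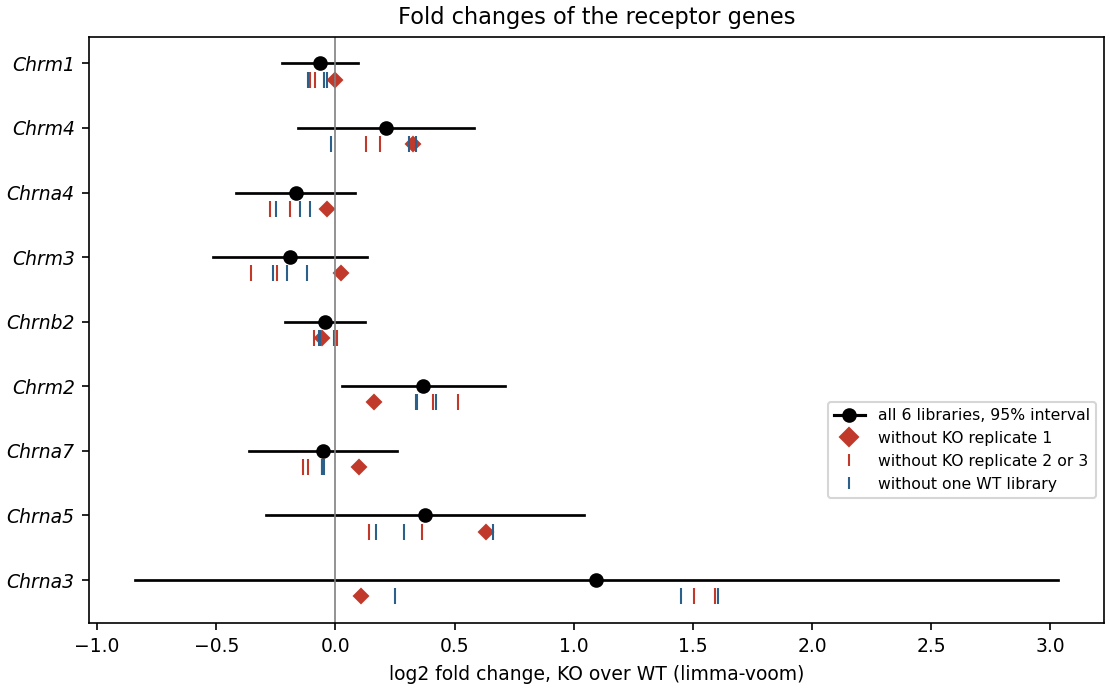
Log2 fold change (KO over WT) of each receptor gene in limma-voom with its 95% interval from all 6 libraries, and below it the estimates after leaving out 1 library. The interval spans 0 for each gene except *Chrm2*, and without KO replicate 1 *Chrm2* is at 0.16 and *Chrna3* at 0.11.

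The rest of the receptor family was at low levels. Of 12 other acetylcholine receptor genes, 9 had a fragment and 6 passed the filter. *Chrna9*, *Chrnd* and *Chrng* had 0 fragments in every library, which allows up to 0.203 to 0.251 CPM, the level of 3 fragments. The muscle subunit *Chrnb1* was at 0.811 to 1.18 CPM and *Chrnb3* at 1.15 to 2.03 CPM. *Chrm5*, the remaining Gq-coupled muscarinic gene, was at 0 to 0.251 CPM, *Chrna6* at 0 to 0.392 CPM and *Chrne* at 0 to 0.157 CPM. The muscle subunit *Chrna1* was at 0.135, 0.0837 and 0.156 CPM across the KO libraries, against 0.313, 0.654 and 0.235 CPM in WT, from 1 to 8 fragments per library. Only WT replicate 2 carried *Chrna1* past the filter on low counts, and it belongs to the group with the higher values. No difference is therefore read from the KO libraries lying below WT, or from the estimate in limma-voom (log2 fold change -1.32, SE 0.70, adjusted p = 0.647).

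*Chrnb4*, which pairs with *Chrna3* in ganglia, was at 1.55, 0.251 and 0.312 CPM in KO and at 0.627, 0.0818 and 0 CPM in WT. *Chrna2*, another alpha subunit, was at 1.96, 0.670 and 0.780 CPM in KO and at 1.65, 0.818 and 0.549 CPM in WT. *Chrnb4* and *Chrna2* were, like *Chrna3*, highest in KO replicate 1. The log2 fold change of *Chrnb4* was 1.97 (SE 1.06, adjusted p = 0.647). It was 1.12 without KO replicate 1, 1.003 without WT replicate 3 and 3.08 without WT replicate 1. That of *Chrna2* was 0.20 with all libraries and -0.31 without KO replicate 1.

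*Chrna10*, known mainly as a subunit of hair cell receptors, had 56, 17 and 19 fragments in KO and 10, 0 and 3 fragments in WT. Its KO libraries all lay above the WT libraries. Its log2 fold change was 3.31 (SE 0.93, unadjusted p = 0.00377 and adjusted p = 0.635 in limma-voom), and it was 2.81 without KO replicate 1. The estimate lay between 2.15, without WT replicate 2, and 4.30, without WT replicate 1, in 16 alternatives, with adjusted p-values of 0.105 to 0.925. Its exons overlap *Art1* on the other strand by 1025 bases.

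**Figure D4:**
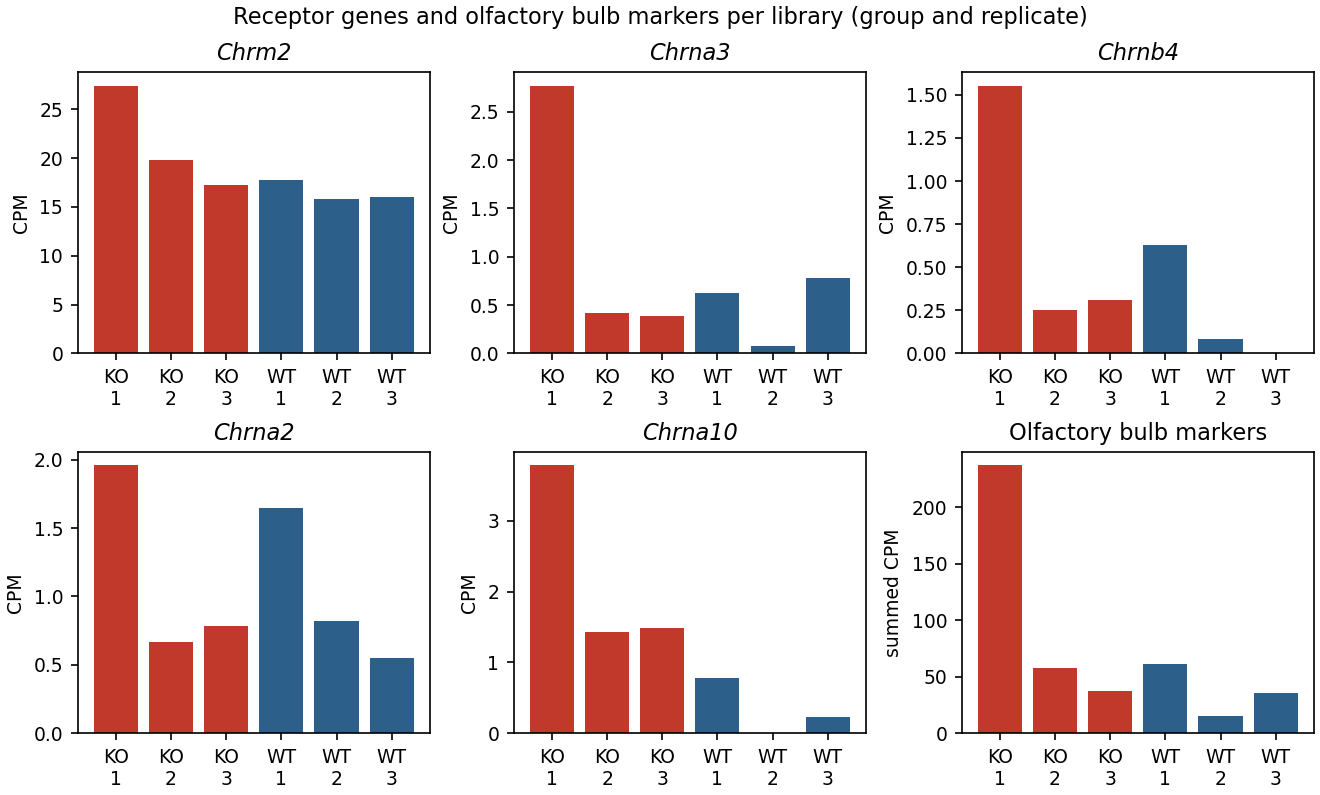
CPM of *Chrm2*, *Chrna3*, *Chrnb4*, *Chrna2* and *Chrna10* and the summed CPM of 7 olfactory bulb markers in each library (linear axes from 0). KO replicate 1 has the tallest bar in each panel, and the marker sum is 237 there and at most 61.4 elsewhere. The panels show only the receptor genes that were highest in KO replicate 1. These were 1 of 4 muscarinic genes, 1 of 5 nicotinic genes and 3 of 12 other receptor genes.

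The make-up of each family was compared as shares of its summed FPKM. *Chrm1* accounted for 53.5 ± 3.28% (SD, n = 6) of the signal of the 5 muscarinic genes, *Chrm4* for 25.3 ± 3.60%, *Chrm3* for 14.9 ± 1.90% and *Chrm2* for 6.04 ± 1.77%. This make-up rests on the division by length, which was 1440 bases for *Chrm4* and 6053 to 6487 bases for *Chrm1*, *Chrm2* and *Chrm3*. Mean CPM was 183 for *Chrm1*, 49.5 for *Chrm3*, 19.3 for *Chrm4* and 19.0 for *Chrm2*, so by CPM the share of *Chrm4* is much smaller. The Gq-coupled genes together held 64.6%, 65.7% and 68.2% in the KO libraries, against 75.7%, 69.5% and 67.9% in WT. WT replicate 1, the library with the lowest *Chrm4*, had the largest share, and the groups overlapped because KO replicate 3 lay above WT replicate 3. The means differed by -4.86 percentage points (KO minus WT, exact permutation p = 0.2, adjusted p = 0.8 over 8 shares and ratios), and 3 libraries against 3 cannot give a p-value under 0.1. The difference was -2.52 without WT replicate 1 and -4.09 without KO replicate 1.

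*Chrna4* and *Chrnb2* made up most of the nicotinic signal. Over the 16 nicotinic genes, *Chrna4* held 43.0 ± 4.19% (SD, n = 6), *Chrnb2* 31.2 ± 1.43%, *Chrna7* 11.6 ± 1.01%, *Chrna5* 5.197 ± 1.68% and *Chrna3* 0.792 ± 0.931%. These shares depend on the counted exon lengths. With the GENCODE M21 transcript lengths *Chrna4* was at 9.86, *Chrnb2* at 8.49 and *Chrna7* at 5.23 FPKM, which gives *Chrna7* a larger part. The 5 subunits together held 84.8% in KO replicate 1 and 91.3% to 95.4% in the other libraries, and *Chrna10*, *Chrna2* and *Chrnb4* were at their highest FPKM in KO replicate 1. The share of *Chrna4* was 35.5%, 44.7% and 41.7% in the KO libraries, against 42.7%, 46.4% and 46.9% in WT. The difference of -4.71 points (exact permutation p = 0.2, adjusted p = 0.8) was -2.16 without KO replicate 1.

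The ratio of *Chrna4* to *Chrnb2* was 1.09, 1.44 and 1.46 in the KO libraries, against 1.32, 1.47 and 1.51 in WT, so that it was lowest in KO replicate 1, and the other KO libraries lay within the WT range (difference -0.10, exact permutation p = 0.5, adjusted p = 0.8). The difference was 0.018 without KO replicate 1. A ratio above 1 rests on the division by length, since mean CPM was 45.0 for *Chrna4* and 54.3 for *Chrnb2*. The ratio of the accessory *Chrna5* to *Chrna4* was 0.122, 0.121 and 0.190 in the KO libraries, against 0.0805, 0.133 and 0.0828 in WT, with WT replicate 2 above KO replicates 1 and 2 (difference 0.046, exact permutation p = 0.3, adjusted p = 0.8). This difference was 0.023 without KO replicate 3. Summed muscarinic exceeded summed nicotinic FPKM by 2.53 ± 0.0921-fold (SD, n = 6), between 2.39 and 2.66 in single libraries. That SD covers the spread between libraries and not the choice of length. With the GENCODE M21 transcript lengths *Chrna7* went from 2.41 to 5.23 FPKM, *Chrnb2* from 6.49 to 8.49 FPKM and *Chrm3* from 7.91 to 11.4 FPKM.

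**Figure D5:**
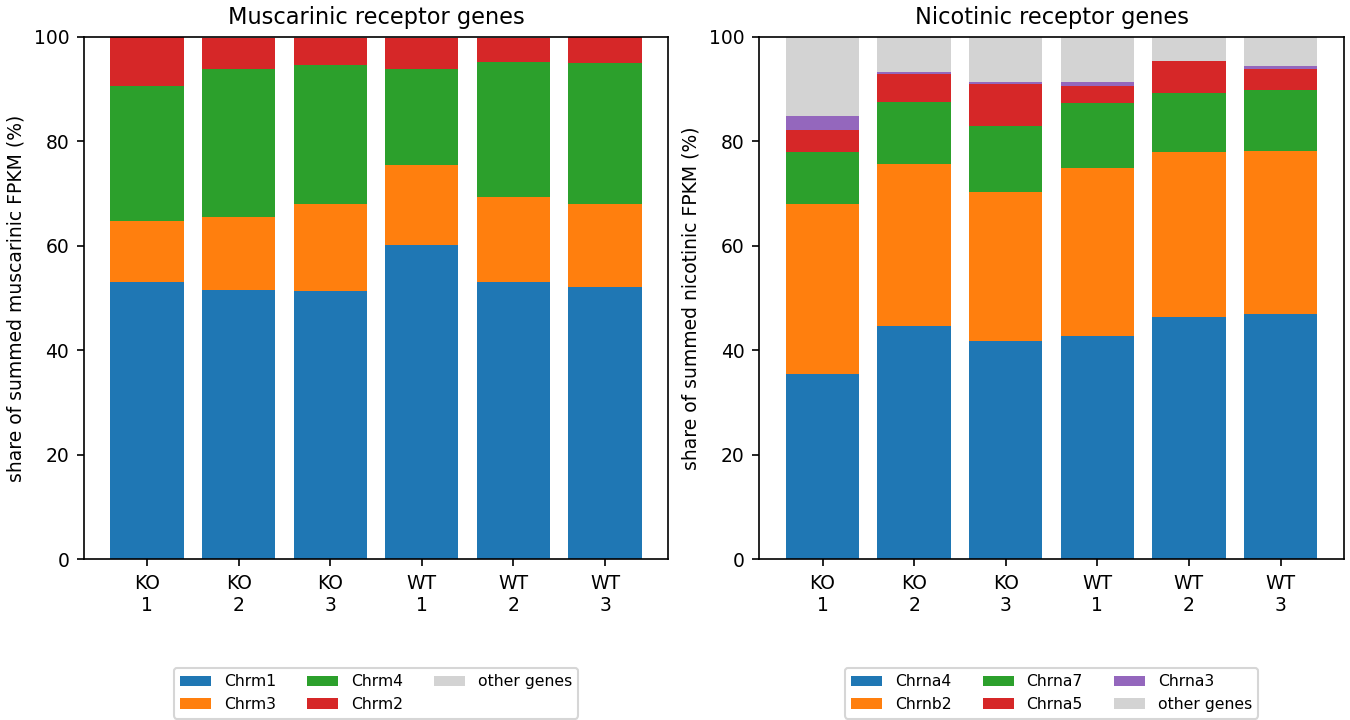
Share (%) of summed FPKM held by each receptor gene among the 5 muscarinic genes and among the 16 nicotinic genes, for each library. WT replicate 1 has the smallest *Chrm4* share (18.3%), and KO replicate 1 has the smallest *Chrna4* share (35.5%).

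For the receptor genes that varied most between libraries, the genes of most similar pattern were sought by the root mean square difference of centred log2 CPM over the 6 libraries. This is a description of these libraries only. For *Chrm2* they were *Dclk2*, *Trpm3* and *Plod2*, with a difference of 0.0588 to 0.0722. *Dclk2*, a doublecortin-like kinase, was at 144 CPM in KO replicate 1 and at 91.3 to 106 CPM in the other libraries. For *Chrm4* they were *Cfap44*, *Pcdhga8* and *Ripk2*, each lowest in WT replicate 1. For *Chrna5* they were *1700087I21Rik*, *Mks1* and *Cfap100*, with larger differences of 0.173 to 0.204.

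Genes for the rest of cholinergic transmission were read from lists of synthesis and transport, breakdown, receptor assembly and the Gq and Gi arms. Of 56 genes, the other receptor genes included, 49 passed the filter, 0 passed the adjusted threshold and 6 reached an unadjusted p-value under 0.05, against 7.81% of all genes tested. Of the 49, 15 had a higher and 34 a lower estimate in KO, with a median log2 fold change of -0.055, whereas 9899 of all genes tested were higher and 9185 lower. All 8 cortical excitatory neuron markers had a lower estimate too (median -0.21, with 0 past the adjusted threshold and 3 at an unadjusted p-value under 0.05 in limma-voom). A higher estimate was found for all 7 olfactory bulb, all 10 striatal neuron, all 7 oligodendrocyte and all 7 astrocyte markers (medians 1.23, 0.36, 0.22 and 0.081). Their part in these counts, and in those of the single lists, was not tested. The transcripts that define cholinergic neurons were scarce. *Chat*, the synthesising enzyme, was at 0.0783 to 0.837 CPM, the vesicular transporter *Slc18a3* at 0.234 to 0.471 CPM and the choline transporter *Slc5a7* at 1.49 to 2.51 CPM.

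*Ache*, the enzyme that breaks acetylcholine down, was at 57.3, 61.7 and 55.6 CPM in KO and at 68.1, 54.8 and 54.4 CPM in WT. WT replicate 1 was highest and the other WT libraries were lowest, with KO between them (log2 fold change -0.017, SE 0.094, adjusted p = 0.971).

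All 9 tested genes of nicotinic receptor assembly and of the Ly6 proteins that bind these receptors had a lower estimate in KO, with a median of -0.16, and 0 of them passed the adjusted threshold. *Nrn1*, which encodes the neuronal surface protein neuritin, was at 137, 137 and 162 CPM in KO and at 237, 162 and 159 CPM in WT, so that WT replicate 1 alone lay outside the KO range by a wide margin (log2 fold change -0.33, SE 0.13, adjusted p = 0.635; -0.14 without WT replicate 1). *Ly6e*, which binds nicotinic receptors, was at 130.0, 144 and 149 CPM in KO and at 155, 161 and 157 CPM in WT without overlap (log2 fold change -0.16, SE 0.069, adjusted p = 0.635; -0.10 without KO replicate 1). *Lynx1*, a brake on nicotinic receptors in cortex, had an estimate of -0.12 (SE 0.081, adjusted p = 0.693) with overlapping groups.

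In the Gq arm, 12 genes were tested and 2 had a higher and 10 a lower estimate in KO. *Prkca*, a protein kinase C, was at 317, 279 and 261 CPM in KO and at 254, 230.3 and 250.4 CPM in WT, with every KO library above the WT range (log2 fold change 0.22, SE 0.078, adjusted p = 0.635; 0.14 without KO replicate 1). *Gnaq*, which encodes the G protein of *Chrm1* and *Chrm3*, had all KO libraries below the WT libraries, at 211 to 229 against 234 to 250.1 CPM, with an estimate of -0.11 (SE 0.064, adjusted p = 0.665).

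In the Gi arm, 13 genes were tested and 4 had a higher and 9 a lower estimate in KO. *Gng2*, a G protein gamma subunit, was at 152, 178 and 178 CPM in KO and at 189, 209.9 and 184 CPM in WT without overlap (log2 fold change -0.20, SE 0.080, adjusted p = 0.635; -0.13 without KO replicate 1). *Rgs4*, which shortens signalling by these receptors, had an estimate of -0.19 (SE 0.077, adjusted p = 0.635; -0.12 without WT replicate 1). Without overlap between the groups were 6 of the 49 genes, against 13% of all genes tested.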

How the data were processed

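The authors sequenced polyadenylated RNA in strand-specific libraries and aligned it with STAR 2.7.9a. Per the file headers, they counted fragments over exons per gene with featureCounts 1.6.0 on GENCODE M31 of GRCm39 (the study's methods name an earlier build), and the deposited values are raw counts without normalization or pooling. Coordinates are those of the files. The 19084 genes with at least 6 fragments in at least 1 library were scaled by TMM (edgeR 4.0.16) and tested with voom and limma 3.58.1 (two-sided, Benjamini-Hochberg adjustment over all genes). The filter and test follow the study's methods, and the threshold of 0.05 was set here. In simulated counts of 18569 genes for this comparison, 70.1%, 91% and 100% of genes changed 1.5-, 2- and 4-fold were recovered, with 22 false calls. The changed genes, many at once by design, were drawn only from genes with a higher mean than *Chrna5* (3.40 CPM) and *Chrna3* (0.845 CPM). The recovered percentages therefore do not apply to receptor genes at such low levels. Named were the receptor genes, *Pla2g4e*, *Chat*, *Slc18a3*, *Slc5a7*, *Ache*, the other receptor genes, listed genes with an unadjusted p-value under 0.05, and the 3 genes nearest in pattern to each of the 3 most variable receptor genes (above 1 CPM). *Lynx1*, *Gnaq*, the marker genes and those called in single alternatives were added after their values were seen. The receptor genes, lists and alternatives were chosen with earlier results of these data known. No 2 libraries agreed within sampling noise. Alternatives were other tests (DESeq2 1.42.0), scalings, filters, weights, covariates and left-out libraries. The level of 3 fragments given for genes at 0 covers counting error only, whereas SDs, SEs and intervals include the spread between libraries.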

Additional observations from a re-analysis of the deposited data

How the results depend on the processing

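*Chrna3* and *Chrna5* rest on at most 66 fragments per library. The order of the receptor genes kept 5 of 8 neighbouring pairs by CPM without division by length. RefSeq transcript lengths were not used. No receptor gene passed the adjusted threshold in any alternative. Over all genes 1 passed with DESeq2 (*Sst*), 24 with a term for *Xist*, 3 within the libraries with *Xist* near 0 (*Eps8l1*, *Col6a4* and *Gfap*), and 0 to 1 without single libraries (*Ripor2* without WT replicate 2). The 1491 genes with an unadjusted p-value under 0.05 became 902 with DESeq2, 696 within the libraries with *Xist* near 0 and 782 to 2238 without single libraries (782 without WT replicate 2, 830 without KO replicate 1, 2238 without WT replicate 3). For the receptor genes this count of 1 became 0 with library quality weights, 2 with a term for *Xist* (*Chrm2* and *Chrna3*), 0 within the libraries with *Xist* near 0 and 0 to 2 without single libraries (0 without KO replicate 1, WT replicate 2 or WT replicate 3, 2 without KO replicate 2, *Chrm2* and *Chrna4*, and 2 without KO replicate 3, *Chrm2* and *Chrm3*). With the replicate number as a block, 1693 genes had an unadjusted p-value under 0.05 and 0 an adjusted one. Correlations of same-numbered deviations were 0.267, 0.059 and -0.02, and only replicate 1 matched its own number best. So few libraries cannot settle whether the numbers pair them. The log2 fold change turned sign within the libraries with *Xist* near 0 for *Chrm1* (0.010), *Chrna7* (0.093), *Ache* (0.10) and *Chrnb1* (0.18), with library quality weights for *Chrna7* (0.0052) and *Chrnb1* (0.0028), and with library totals alone for *Ache* (0.0077). Without single libraries it ranged from -0.35 to 0.022 for *Chrm3* (above 0 without KO replicate 1), from -0.018 to 0.34 for *Chrm4* (below 0 without WT replicate 1), from -0.14 to 0.099 for *Chrna7* (above 0 without KO replicate 1), from -0.089 to 0.0084 for *Chrnb2* (above 0 without KO replicate 3), from -0.28 to 0.091 for *Slc5a7* (above 0 without WT replicate 3), from -0.077 to 0.090 for *Ache* (above 0 without KO replicate 3 or WT replicate 1), from -0.31 to 0.63 for *Chrna2* (below 0 without KO replicate 1 or WT replicate 3) and from -0.21 to 0.061 for *Chrnb1* (above 0 without KO replicate 1 or WT replicate 1). The cause was not tested.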
